A study of Mus musculus with 16 samples.

Results

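Surfactant and alveolar type 2 genes were followed across all groups of a mouse lung series on crystalline silica (CS). The genes are Sftpa1, Sftpb, Sftpc, Sftpd, Abca3, Lamp3, Napsa, Slc34a2, Lpcat1 and Nkx2-1, 10 of the 19938 genes with a symbol of their own on the array. They were chosen by symbol in the platform annotation. All 10 were found, each with 1 probe set, so no probe set had to be chosen among several.

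C57BL/6 mice aged 10-12 weeks received CS, or phosphate-buffered saline (PBS) as control, into the trachea, and RNA of the total lung was measured on 16 arrays. At day 2 the mice were BLT1-/- or BLT1+/+ and carried no tumor allele. At day 60 they were BLT1-/-KRasLA1 or BLT1+/+KRasLA1. There were 3 lungs in each of the 4 CS groups, and for each of the 4 PBS groups RNA of 3 mice was pooled and run on 1 array. BLT1 is the high-affinity receptor for leukotriene B4, encoded by Ltb4r1. KRasLA1 is a latent oncogenic allele that recombines spontaneously in scattered cells of the body, so that lung tumors form without an added agent. It was present in silica and saline mice alike at day 60. No lungs without KRasLA1 at day 60, and none with it at day 2, were analysed here, so day and KRasLA1 cannot be told apart. The CS lungs are labelled as biological replicates without naming animals, so the p-values reflect the spread among these lungs and no more, and some of it may be technical.

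Alveolar type 2 cells are the cuboidal cells of the alveolar wall that make surfactant and renew the alveolar lining. Surfactant is a phospholipid film with 4 dedicated proteins. The hydrophobic SP-B and SP-C spread the film, and the collectins SP-A and SP-D bind microbes, particles and lipids in the air space. Lipid and the hydrophobic proteins are packed in lamellar bodies, secreted, and later recycled by type 2 cells or broken down by alveolar macrophages. Inhaled silica is known for filling alveoli with surfactant protein and lipid.

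The 5 promoters that follow include those of 2 genes that moved in a comparison (Sftpa1, Abca3) and of the regulator gene Nkx2-1. The others are the promoters of Lpcat1, the most parallel to Nkx2-1 among the 10 genes, and of the surfactant protein gene Sftpb. Each is the 250 bases before the start used in a table of promoters from RefSeq (assembly GRCm38.p6), 5′ to 3′ on the gene's strand. The table matched 7 of the 10 genes. For Abca3 that start lies 102 bases after the first base of the annotated gene, so the 148 bases before the gene are shown, and for the others it is the gene's first base. Capitals mark CAAG or its complement CTTG, the core that NKX2-1 is known to bind.
Sftpa1 promoter, chr14:41131538-41131787, plus strand: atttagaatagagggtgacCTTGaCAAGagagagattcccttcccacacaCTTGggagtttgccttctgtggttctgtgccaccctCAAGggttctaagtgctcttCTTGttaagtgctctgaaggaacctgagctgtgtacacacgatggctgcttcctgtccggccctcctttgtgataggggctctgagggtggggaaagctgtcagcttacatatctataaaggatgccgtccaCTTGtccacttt
Sftpb promoter, chr6:72304360-72304609, plus strand: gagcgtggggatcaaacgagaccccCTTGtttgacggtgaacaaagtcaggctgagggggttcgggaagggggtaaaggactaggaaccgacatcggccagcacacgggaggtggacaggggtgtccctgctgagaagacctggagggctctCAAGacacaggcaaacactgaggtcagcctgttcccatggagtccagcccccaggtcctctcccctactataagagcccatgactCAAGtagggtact
Abca3 promoter, chr17:24351773-24351920, plus strand: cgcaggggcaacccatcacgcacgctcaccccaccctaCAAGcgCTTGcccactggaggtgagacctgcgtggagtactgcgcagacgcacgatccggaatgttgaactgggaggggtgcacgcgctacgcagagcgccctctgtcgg
Lpcat1 promoter, chr13:73466981-73467230, plus strand: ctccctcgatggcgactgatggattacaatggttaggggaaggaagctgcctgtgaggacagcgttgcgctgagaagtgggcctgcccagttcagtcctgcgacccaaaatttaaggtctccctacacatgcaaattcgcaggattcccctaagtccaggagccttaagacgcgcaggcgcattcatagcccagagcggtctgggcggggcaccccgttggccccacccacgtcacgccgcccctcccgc
Nkx2-1 promoter, chr12:56536909-56537158, minus strand: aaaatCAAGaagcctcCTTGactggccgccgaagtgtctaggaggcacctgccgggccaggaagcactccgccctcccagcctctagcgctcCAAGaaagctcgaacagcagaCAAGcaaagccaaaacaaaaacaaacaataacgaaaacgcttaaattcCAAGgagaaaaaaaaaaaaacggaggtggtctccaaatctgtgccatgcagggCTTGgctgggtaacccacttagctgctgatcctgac
Counted on both strands, the core occurred 6 times in the Sftpa1 window, 3 times in that of Sftpb, 2 times in that of Abca3, 6 times in that of Nkx2-1 and 0 times in that of Lpcat1. At least 1 match was present in 86.6% of 32851 promoter windows of this length, with a median of 2.0 matches, so a match by itself is common. The longer NK2-class form CAAGTG, which overlaps the core, occurred 2 times in the Sftpa1 window and in 11.6% of all windows. TGTTTNC, a form bound by FOXA factors, occurred 1 time in the Sftpb window and in 17.8% of all windows. TTGCNNAA, a C/EBP form, occurred 0 times in the windows shown and in 9.56% of all windows. Of the matched windows not shown, that of Lamp3 held the core 1 time and the FOXA form 2 times, and that of Slc34a2 held the C/EBP form 1 time and the core 0 times. These matches describe letters and are not evidence of binding.

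Values are log2 levels after RMA, a method that summarises the probes of a gene and brings all arrays to 1 distribution. A difference of 1 on this scale is a doubling. The 10 genes lie near the top of the scale, as type 2 cell transcripts do in whole lung. Means over the 16 arrays were 14.36 for Sftpc, 14.23 for Sftpa1, 14.00 for Sftpb, 13.84 for Slc34a2, 13.40 for Sftpd, 13.26 for Lamp3, 12.79 for Lpcat1, 12.16 for Napsa, 11.97 for Abca3 and 11.28 for Nkx2-1. The highest value of any probe set on any array was 14.77. Probe sets differ in response, so these levels do not rank the genes by RNA amount, and how far the brightest probe sets are compressed near the top of the scale was not tested. Whole-lung RNA does not show which cells a transcript came from, type 2 cells or others. Fewer type 2 cells and less RNA per cell cannot be told apart either.

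All 10 genes varied little. The range over all 16 arrays was smallest for Slc34a2 (0.14 log2 units), followed by Sftpc (0.22), Sftpa1 (0.24), Sftpb (0.25), Abca3 (0.34), Lamp3 (0.38), Lpcat1 (0.48), Sftpd (0.53), Nkx2-1 (0.61) and Napsa (0.66). The 4 genes with the widest ranges were thus the collectin SP-D, a lysosomal protease, a lipid enzyme and the lineage transcription factor, and the genes of SP-A, SP-B and SP-C were among the 4 steadiest. The 4 steadiest are also the 4 highest on the scale, where compression was not tested. Markers of the thyroid, another tissue that uses Nkx2-1, averaged 7.37 to 7.88 on every array, far down the scale.

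Of the day 60 arrays, 3 stood apart by sex-linked genes. The Y-linked gene Eif2s3y reached 10.09 in replicate 2 of the BLT1+/+KRasLA1 CS lungs, at 9.04 in the BLT1-/-KRasLA1 PBS pool and at 9.68 in the BLT1+/+KRasLA1 PBS pool, against 4.27 to 4.74 on the other 13 arrays. Xist was at 6.61 in that lung and at 12.16 or above elsewhere. The labels give no sex. In that lung 9 of the 10 genes lay above their group mean, by 0.08 on average over the 10, so the main results at day 60 are also given without it. Both day 60 pools had high Eif2s3y, and the other day 60 CS lungs did not. Without that lung, silica at day 60 and this difference in Eif2s3y cannot be told apart. With it, that lung alone separates them. Ltb4r1 itself did not separate the genotypes at day 60 (7.22 to 7.37 in BLT1-/-KRasLA1 CS lungs, against 7.26 to 7.42 in BLT1+/+KRasLA1 CS lungs). At day 2 it was at 7.35 to 7.43 in BLT1-/- CS lungs, against 7.56 to 7.63 in BLT1+/+ CS lungs, but at 7.56 in the BLT1-/- pool, against 7.40 in the BLT1+/+ pool. The labels do not say which part of the gene was deleted, so this probe set is no check of the BLT1 labels. Among CS lungs of the same day, lungs with the same replicate number deviated together at day 2 (r = 0.43, 0.20 and 0.34 over genes) and not at day 60 (r = 0.09, 0.01 and 0.06).

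**Figure D1:**
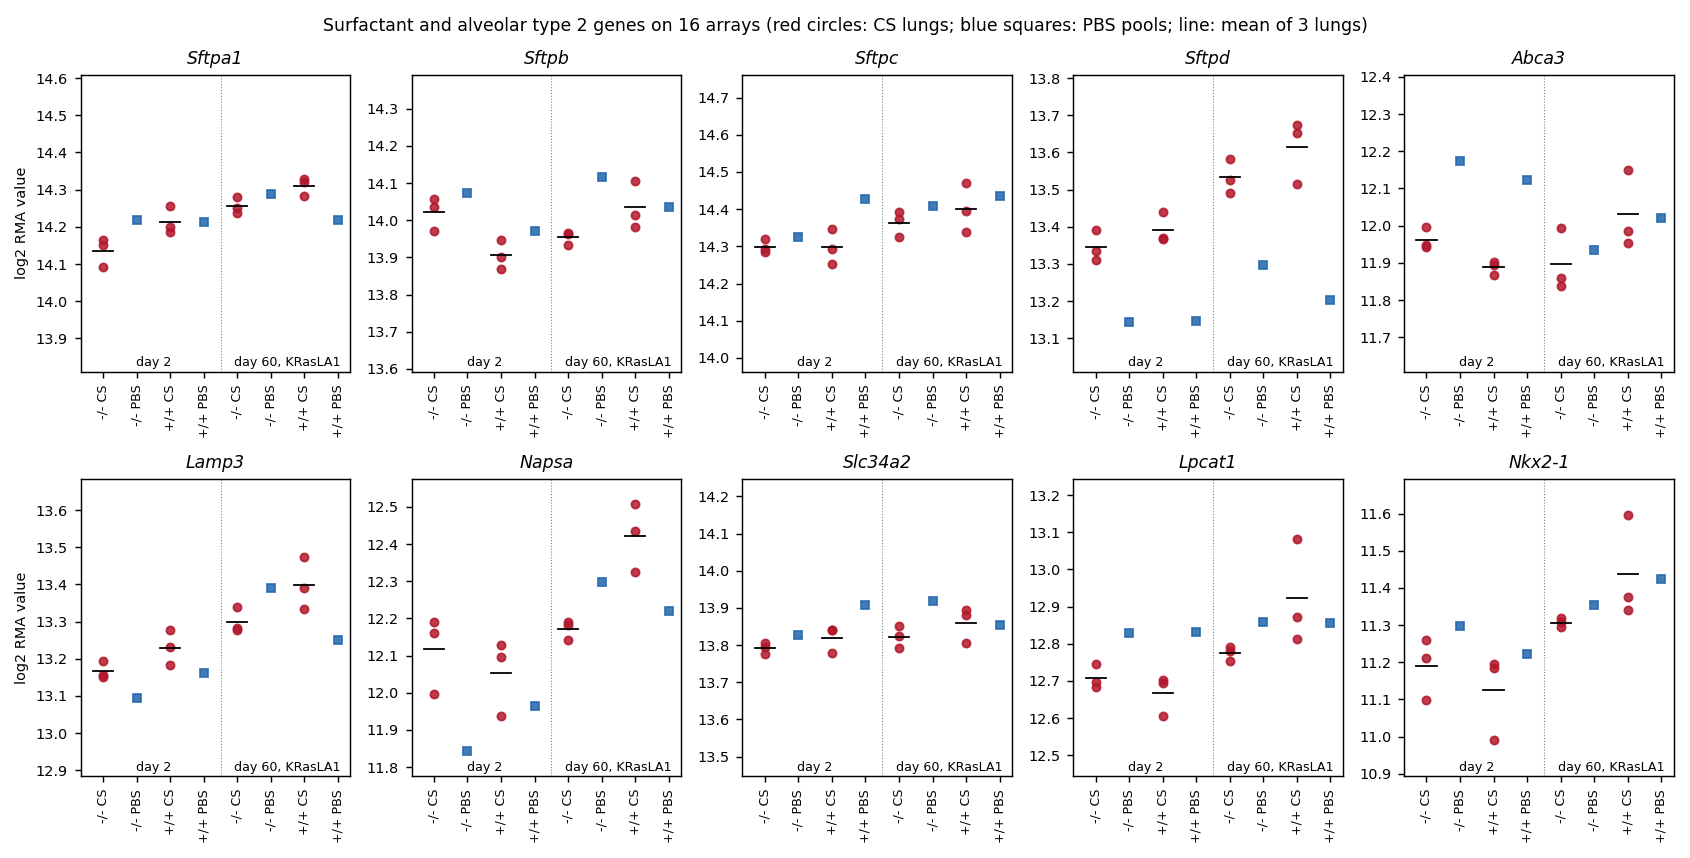
Log2 RMA values (vertical axes, all spanning 0.8 log2 units) of the 10 genes in the 8 groups, with CS lungs as red circles, PBS pools as blue squares and the mean of 3 lungs as a line. Sftpd is higher in every CS lung than in the PBS pool of its own group. Replicate 2 of the BLT1+/+KRasLA1 CS lungs is the highest array for Sftpa1, Sftpd, Lamp3, Napsa, Lpcat1 and Nkx2-1.

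The first question was how the genes responded to silica. Sftpd, the gene of the collectin SP-D, rose at both days. Abca3, the gene of the transporter that moves phospholipid into lamellar bodies, fell at day 2. The other 8 genes passed the test at neither day.

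Sftpd, on chromosome 14, was at 13.31, 13.33 and 13.39 in the BLT1-/- CS lungs, against 13.14 in the BLT1-/- PBS pool. In the BLT1+/+ CS lungs of day 2 it was at 13.44, 13.37 and 13.37, against 13.15 in the BLT1+/+ PBS pool. All 6 CS lungs of day 2 lay above both pools. At day 60 Sftpd was at 13.49, 13.53 and 13.58 in the BLT1-/-KRasLA1 CS lungs, against 13.30 in their PBS pool. In the BLT1+/+KRasLA1 CS lungs it was at 13.65, 13.67 and 13.51, against 13.20 in their PBS pool. All 6 CS lungs of day 60 again lay above both pools, and all 12 CS lungs of the series lay above all 4 pools.

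Averaged over the BLT1 genotypes, Sftpd was higher after silica by 0.22 ± 0.05 at day 2 (1.17-fold, SE, limma adjusted p = 0.0134) and by 0.32 ± 0.05 at day 60 (1.25-fold, adjusted p = 0.00298). The increase at day 60 exceeded that at day 2 by 0.10 ± 0.07, which did not pass the test (adjusted p = 0.649). Within single genotypes the difference was 0.20 ± 0.07 in BLT1-/- mice, 0.25 ± 0.07 in BLT1+/+ mice, 0.24 ± 0.07 in BLT1-/-KRasLA1 mice and 0.41 ± 0.07 in BLT1+/+KRasLA1 mice. Among these 4, only the last passed the test (adjusted p = 0.0211), and it no longer did without replicate 1 (0.39, adjusted p = 0.0714) or replicate 2 (0.38, adjusted p = 0.0659) of its CS lungs. The pooled calls rest on the single-array saline pools. Without the BLT1-/- pool the day 2 difference was 0.25 (adjusted p = 0.140) and without the BLT1+/+ pool it was 0.20 (adjusted p = 0.120). At day 60 it was 0.24 (adjusted p = 0.194) without the BLT1+/+KRasLA1 pool. Without the lung with high Eif2s3y it was 0.31 (adjusted p = 0.00659), but all remaining day 60 CS lungs then differ from both pools in Eif2s3y.

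Abca3, on chromosome 17, moved the other way at day 2. It was at 11.95, 12.00 and 11.94 in the BLT1-/- CS lungs, against 12.17 in their PBS pool. In the BLT1+/+ CS lungs it was at 11.90, 11.89 and 11.87, against 12.12 in their PBS pool. All 6 CS lungs lay below both pools. The difference was -0.22 ± 0.06 (0.857-fold, adjusted p = 0.0310). It missed the threshold without replicate 2 (-0.22, adjusted p = 0.0526) or replicate 3 (-0.22, adjusted p = 0.0548) of the BLT1+/+ CS lungs. It also missed it without the BLT1-/- pool (-0.23, adjusted p = 0.254) or the BLT1+/+ pool (-0.21, adjusted p = 0.163). At day 60 Abca3 was at 11.84, 11.86 and 11.99 in the BLT1-/-KRasLA1 CS lungs, against 11.93 in their PBS pool. In the BLT1+/+KRasLA1 CS lungs it was at 11.99, 12.15 and 11.95, against 12.02 in their PBS pool. CS lungs lay on both sides of their pools, and the difference was -0.01 ± 0.06 (adjusted p = 0.959), or -0.04 without the lung with high Eif2s3y. The day 60 difference minus the day 2 difference was 0.21 ± 0.09 (adjusted p = 0.283), so a change with day was not called.

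In all, 2 of the 10 genes were called at day 2, 1 higher and 1 lower, against 12.4% of all genes tested (8.03% higher and 4.37% lower). At day 60 1 of the 10 was called, higher, against 4.02% of all genes (3.35% higher). These counts are close to the background share, so they do not set the 10 genes apart as a group. Their median difference was -0.06 at day 2 and -0.01 at day 60, beside -0.02 and -0.03 for all genes. None of the 10 was called in the difference of the responses, against 2.35% of all genes, and 1 had an unadjusted p under 0.05, as had 14.1% of all genes.

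The genes of the hydrophobic proteins and of SP-A stayed within narrow bounds. Sftpc, which marks type 2 cells, was at 14.32, 14.28 and 14.29 in BLT1-/- CS lungs, against 14.33 in the pool. It was at 14.35, 14.29 and 14.25 in BLT1+/+ CS lungs, against 14.43 in the pool. All 6 lungs lay below their own pool, yet the difference of -0.08 did not pass (95% interval -0.17 to 0.02, adjusted p = 0.318). At day 60 it was -0.04 (interval -0.14 to 0.06). Sftpb, whose loss is lethal at birth in mice, was also below its own pool in 6 of 6 CS lungs at day 2 (-0.06, interval -0.16 to 0.04) and in 5 of 6 at day 60 (-0.08, interval -0.18 to 0.02). Sftpa1, the gene of SP-A, differed by -0.04 at day 2 (interval -0.13 to 0.05) and by 0.03 at day 60 (interval -0.06 to 0.12). No limit of these 6 intervals lay farther from 0 than 0.18, against a difference of 0.32 for Sftpd at day 60. Sftpd lies lower on the scale than these genes, and compression near its top was not tested.

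The lipid, protease, transport and lineage genes followed. Napsa encodes napsin A, the aspartic protease that helps process SP-B. It was at 12.00, 12.19 and 12.16 in BLT1-/- CS lungs, against 11.84 in the pool. It was at 11.94, 12.13 and 12.10 in BLT1+/+ CS lungs, against 11.96 in the pool. In both groups replicate 1 was the low lung, and 5 of 6 lungs lay above their own pool. The day 2 difference of 0.18 ± 0.07 did not pass (adjusted p = 0.115), but it did in the fit with the replicate number of the day 2 lungs as a block (adjusted p = 0.0333) and without replicate 1 of the BLT1+/+ lungs (0.21, adjusted p = 0.0465). In BLT1-/- mice alone it was 0.27 ± 0.10 (adjusted p = 0.115, and 0.034 with the block). At day 60 Napsa differed by 0.04 ± 0.07, or by 0.02 without the lung with high Eif2s3y.

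Lpcat1, the acyltransferase that makes the disaturated phosphatidylcholine of surfactant, was below its own pool in 6 of 6 CS lungs at day 2, at 12.70, 12.74 and 12.68 in BLT1-/- lungs against 12.83 in the pool and at 12.69, 12.70 and 12.61 in BLT1+/+ lungs against 12.83 in the pool. The difference of -0.14 ± 0.06 did not pass (adjusted p = 0.183). Nkx2-1, the homeodomain factor that drives the surfactant genes, was likewise below its own pool in 6 of 6 lungs, by 0.10 ± 0.08 (adjusted p = 0.477), and in 5 of 6 at day 60 (-0.02 ± 0.08). Slc34a2, the apical phosphate transporter of type 2 cells, differed by -0.06 at day 2 and -0.04 at day 60. Lamp3, a lamellar body membrane protein, was above its own pool in 6 of 6 lungs at day 2 (0.07 ± 0.05, adjusted p = 0.428) and in 3 of 6 at day 60 (0.03 ± 0.05). Signs of the 10 genes at day 60 depended on the scaling: 4 of 10 were positive as deposited, 7 after cyclic loess and 2 with each array centred on its median.

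**Figure D2:**
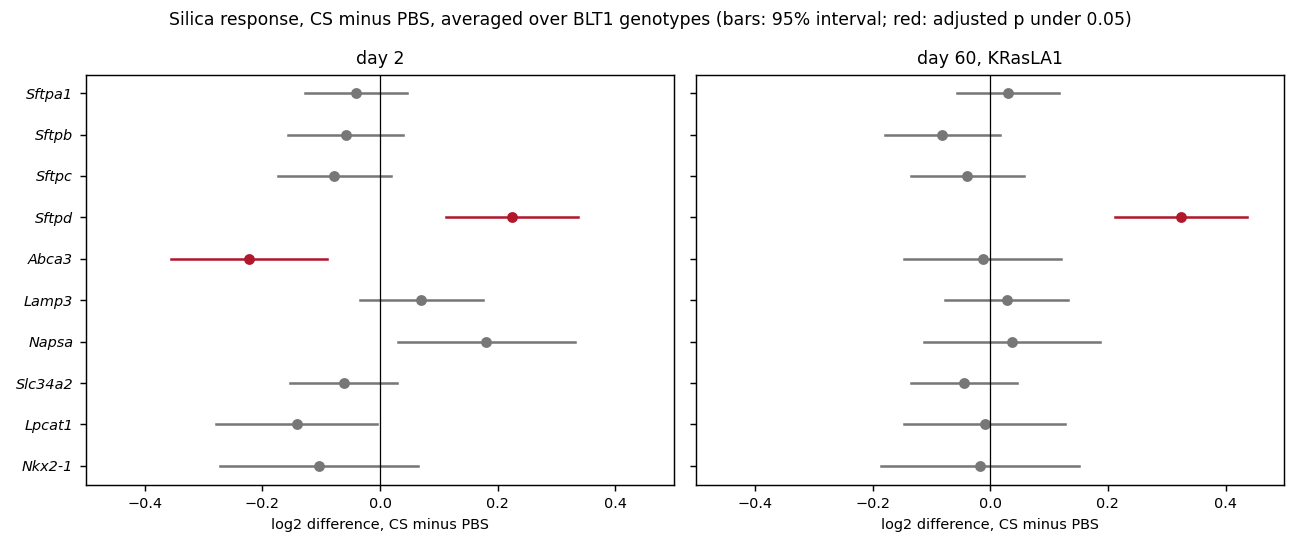
Log2 difference, CS minus PBS, of each gene averaged over the BLT1 genotypes at day 2 (left) and day 60 (right), with 95% intervals from limma. Sftpd is called at both days (0.22 and 0.32) and Abca3 at day 2 alone (-0.22), and the other points lie between -0.14 and 0.18.

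Within single genotypes, none of the 10 genes was called in BLT1-/- mice (background 6.6% of all genes), BLT1+/+ mice (1.16%) or BLT1-/-KRasLA1 mice (1.17%). In BLT1+/+KRasLA1 mice 1 was called, Sftpd, against 0.762% of all genes in either direction and 0.687% higher. An unadjusted p under 0.05 was found for 3 of the 10 in BLT1-/- mice (23.8% of all genes), 2 in BLT1+/+ mice (12.3%), 2 in BLT1-/-KRasLA1 mice (8.83%) and 2 in BLT1+/+KRasLA1 mice (9.71%). These comparisons set 3 lungs against 1 array.

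The wider biology of type 2 cells was followed through gene lists. At day 2, 28 other type 2 markers were measured, of which 10 fell, 2 rose and the rest did not pass, beside 4.37% lower and 8.03% higher among all genes. Their median difference was -0.15, against -0.02 for all genes. The 4 with the smallest p were Acoxl, an acyl-CoA oxidase (-0.81), Chil1, a chitinase-like protein (0.31), Lgi3, a secreted protein (-0.51), and Hc, complement C5 (-0.33). Among the others that fell, chosen after their values were seen, were S100g, a calcium-binding protein (-0.45), Etv5, an ETS factor that maintains type 2 identity (-0.33), the growth factor receptor Fgfr2 (-0.34) and Cd74 (-0.38). Cd74, Lyz1, Lyz2, Fabp5 and Chil1 of this list are also made by immune cells. The count of 10 falls depended on single arrays. It was 4 without replicate 2 and 5 without replicate 3 of the BLT1+/+ CS lungs, and 6 without replicate 3 of the BLT1-/- CS lungs or without replicate 2 or 3 of the BLT1-/-KRasLA1 CS lungs. Leaving out the BLT1-/- pool gave 2 falls (median -0.16), and leaving out the BLT1+/+ pool gave 4 (median -0.20).

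Of 29 surfactant lipid genes 1 rose and 3 fell at day 2, a share near the 12.4% called among all genes: Acsl4, an acyl-CoA synthetase, was higher by 0.37, and the sterol and phospholipid exporters Abca1 (-0.65) and Abcg1 (-0.51) and the choline phosphotransferase Chpt1 (-0.22) were lower. Of 24 genes of surfactant processing, secretion and clearance, 5 rose and 1 fell. P2ry2, the purinergic receptor that triggers lamellar body secretion, rose by 0.74, the scavenger receptor Marco by 0.95 and the flippase Atp11a by 0.20. Of 24 transcription regulators of type 2 genes, Elf3 rose by 0.63, and Etv5 and Tfcp2l1 fell (-0.33 and -0.32), again a share near that of all genes.

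Markers of other epithelial states and cells moved in the same lungs. Of 17 injury-associated alveolar epithelial markers 15 rose at day 2, among them Lcn2 (1.07), Il33 (1.23), Lrg1 (1.16) and Orm1 (2.97), with a list median of 0.78. Of 15 pan-epithelial markers 5 rose and 0 fell, of 16 type 1 cell markers 1 rose and 1 fell, and of 13 club cell markers 0 rose and 7 fell. Leukocyte markers fell in 6 of 15 and rose in 1, and heart muscle markers fell in 7 of 12. Cell cycle genes rose in 19 of 19 (list median 1.47), and neutrophil markers rose in 1 of 15 and fell in 0. The mean log2 level of the heart markers was 9.26 to 9.86 in the day 2 CS lungs, against 10.23 and 10.26 in the pools. The part of these shifts in the values of Sftpd and Abca3 was not tested.

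At day 60, 2 of the 28 other type 2 markers rose, Chil1 (0.38) and Fabp5 (0.85), and Bex2 fell (-1.02), with a list median of 0.00 beside -0.03 for all genes. Of the 29 lipid genes only Fabp5 was called. Of the 24 genes of processing, secretion and clearance 4 rose and 0 fell: the GM-CSF receptor genes Csf2rb (1.01) and Csf2ra (0.57), P2ry2 (0.62) and Csf2 (0.82), the gene of GM-CSF, the cytokine that macrophages need to clear surfactant. That count was 2 without either pool, 6 without replicate 3 of the BLT1-/- CS lungs and 7 without replicate 3 of the BLT1+/+KRasLA1 CS lungs. Of the 24 regulators Ehf rose (0.36) and Tead1 fell (-0.29). Among all genes 3.35% rose and 0.677% fell at this day. Without the lung with high Eif2s3y, 2 type 2 markers rose and 1 fell, 1 lipid gene and 4 genes of processing, secretion and clearance rose and 0 fell, and 1 regulator rose and 0 fell. Injury-associated markers rose in 5 of 17 (Lcn2 1.02, Lrg1 1.13), club cell markers fell in 6 of 13, and leukocyte markers rose in 11 of 15. Leukocyte markers had a mean log2 level of 11.25 to 11.65 in the day 60 CS lungs, against 10.78 and 10.83 in the pools, beside which Sftpd was higher too. At day 2, where Sftpd was also higher, that mean was 10.43 to 10.87 in CS lungs, against 11.20 and 11.13 in the pools. The list mixes genes of several leukocyte types, and their part in the Sftpd values was not tested at either day.

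**Figure D3:**
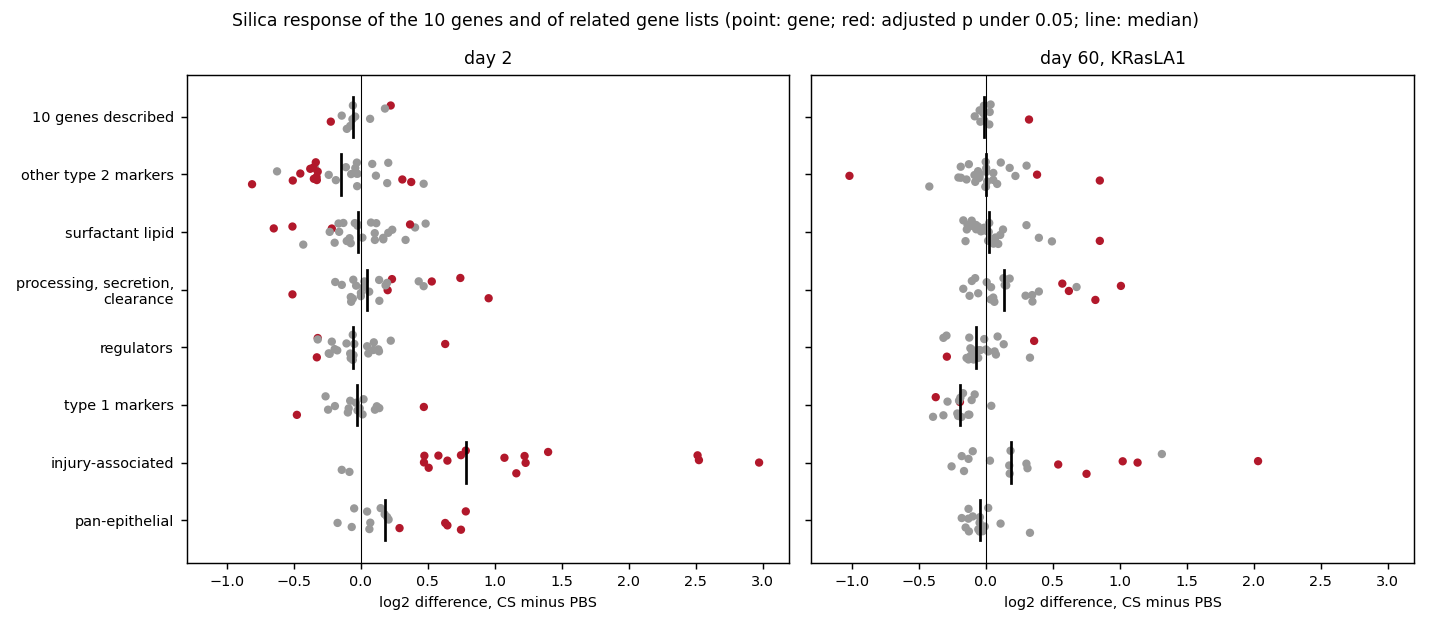
Log2 difference, CS minus PBS (horizontal axes), at day 2 and day 60, with 1 point per gene, red where the adjusted p is under 0.05, and a line at each list's median. The 10 surfactant and type 2 genes lie close to 0 at both days, other type 2 markers lean below 0 at day 2 (median -0.15), and injury-associated markers spread to 2.97 at day 2.

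The second comparison set the CS lungs of KRasLA1 mice at day 60 against the CS lungs of day 2. All 10 genes had a positive difference and 6 passed the test: Nkx2-1, Napsa, Sftpd, Lpcat1, Lamp3 and Sftpa1. The background was 26.1% of all genes called in either direction and 12.2% higher. The median SE was 0.0356 over the 10 genes and 0.0695 over all genes, so smaller differences could pass among the 10. The median over the 10 genes was 0.13, beside -0.03 over all genes. With each array centred on its median, 9 of 10 differences were positive.

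Nkx2-1, on chromosome 12, was at 11.30, 11.32 and 11.31 in BLT1-/-KRasLA1 CS lungs and at 11.38, 11.60 and 11.34 in BLT1+/+KRasLA1 CS lungs, against 11.26, 11.10 and 11.21 in BLT1-/- and 11.20, 11.19 and 10.99 in BLT1+/+ CS lungs of day 2. The days did not overlap. The difference was 0.22 ± 0.06 (1.16-fold, adjusted p = 0.0105), and 0.18 (adjusted p = 0.0251) without replicate 2 of the BLT1+/+KRasLA1 CS lungs.

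Napsa was at 12.18, 12.19 and 12.14 in BLT1-/-KRasLA1 and at 12.32, 12.51 and 12.44 in BLT1+/+KRasLA1 CS lungs, against 12.00, 12.19 and 12.16 in BLT1-/- and 11.94, 12.13 and 12.10 in BLT1+/+ CS lungs of day 2. The BLT1-/-KRasLA1 lungs overlapped with day 2 and the BLT1+/+KRasLA1 lungs did not. The difference was 0.21 ± 0.05 (adjusted p = 0.00588). Sftpd, whose values are given above, was higher by 0.20 ± 0.04 (adjusted p = 0.00106) with no overlap between the days.

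Lamp3 was at 13.28, 13.34 and 13.28 in BLT1-/-KRasLA1 and at 13.39, 13.47 and 13.33 in BLT1+/+KRasLA1 CS lungs, against 13.15, 13.16 and 13.19 in BLT1-/- and 13.18, 13.28 and 13.23 in BLT1+/+ CS lungs of day 2. The lowest lungs of day 60 lay just above the highest of day 2. The difference was 0.15 ± 0.03 (adjusted p = 0.0052). Lpcat1 was at 12.78, 12.75 and 12.79 in BLT1-/-KRasLA1 and at 12.81, 13.08 and 12.87 in BLT1+/+KRasLA1 CS lungs, all above the day 2 lungs. Its difference was 0.16 ± 0.04 (adjusted p = 0.0172), but 0.13 (adjusted p = 0.0538) with each array centred on its median. Sftpa1 was at 14.24 to 14.33 in the day 60 lungs, against 14.09 to 14.26 in the day 2 lungs. It differed by 0.11 ± 0.03 (adjusted p = 0.0116), and by 0.08 (adjusted p = 0.115) with each array centred on its median. Absence of overlap, seen for Sftpd, Lamp3, Lpcat1 and Nkx2-1, occurred in 13.4% of all genes in this comparison.

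The other 4 genes did not pass. Sftpc differed by 0.08 (interval 0.02 to 0.15, adjusted p = 0.0656), and passed under 3 other fits, cyclic loess among them (0.12, adjusted p = 0.0383), and without any 1 of 3 lungs. Abca3 differed by 0.04 (interval -0.06 to 0.13), Slc34a2 by 0.04 (interval -0.03 to 0.10) and Sftpb by 0.03 (interval -0.04 to 0.10). The count of 6 was 6 or 7 with any 1 CS lung left out, and 6 without the lung with high Eif2s3y.

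In the PBS pools of KRasLA1 day 60 against those of day 2, 9 of 10 differences were positive and 0 were called by limma, against 0.396% of all genes, with 3 of the 10 and 10.7% of all genes at an unadjusted p under 0.05. Napsa was at 12.30 and 12.22 in the BLT1-/-KRasLA1 and BLT1+/+KRasLA1 pools, against 11.84 and 11.96 in the BLT1-/- and BLT1+/+ pools. Both day 60 pools lay above both day 2 pools. The difference was 0.36 (adjusted p = 0.107, and 0.0328 with the block on the day 2 lungs). Lamp3 was higher in the day 60 pools by 0.19 (adjusted p = 0.217), and Abca3 was lower by 0.17 (adjusted p = 0.428). These pools received no silica, and each pair holds 2 arrays. Eif2s3y was at 9.04 and 9.68 in the BLT1-/-KRasLA1 and BLT1+/+KRasLA1 pools. It was at 4.33 and 4.27 in the BLT1-/- and BLT1+/+ pools of day 2. Day, KRasLA1 and this difference in Eif2s3y cannot be told apart between the pools. Of 15 neutrophil markers 7 were lower in the day 60 pools, against 0.231% of all genes. The mean log2 level of the 15 was 9.97 and 9.57 in the BLT1-/- and BLT1+/+ pools of day 2. It was 8.03 and 8.28 in the BLT1-/-KRasLA1 and BLT1+/+KRasLA1 pools. In CS lungs of day 2 it was 9.55 to 9.92 (BLT1-/-) and 9.60 to 10.38 (BLT1+/+). The part of this in the differences from the pools was not tested.

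**Figure D4:**
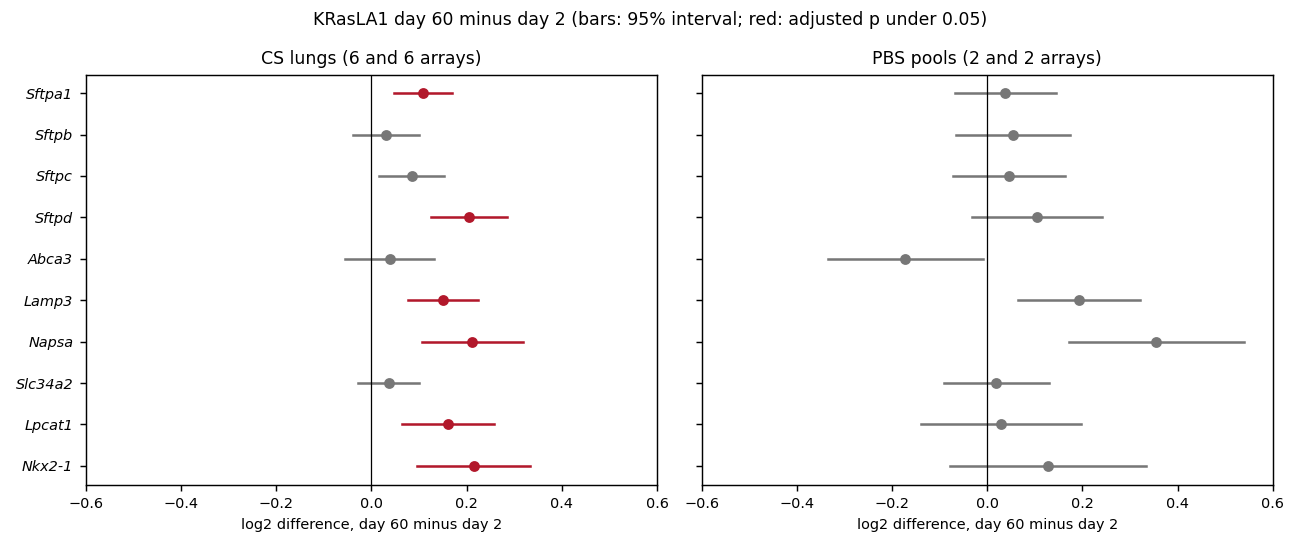
Log2 difference, KRasLA1 day 60 minus day 2, for CS lungs (left) and PBS pools (right), with 95% intervals. In CS lungs 6 genes are called, all higher, with differences of 0.11 to 0.22, and in the pools the largest point is Napsa at 0.36 with a wide interval.

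Other type 2 markers also stood higher in the later CS lungs: 16 of 28 rose and 1 fell, with a median of 0.16, beside 12.2% higher and 13.8% lower among all genes. Without the lung with high Eif2s3y 15 rose and 0 fell. S100g (0.87), Fabp5 (0.96), Cd74 (0.76) and Lgi3 (0.57) had the smallest p. Hc (0.33), Etv5 (0.42), Fgfr2 (0.36) and Acoxl (0.33), named here because they had fallen with silica at day 2, were higher as well, a comparison that uses the same day 2 CS lungs. The 1 that fell was Slc31a1, a copper transporter (-0.18). Of the lipid genes 9 of 29 rose and 3 fell (7 and 2 without that lung), with Abcg1 (1.24), Fabp5 (0.96), Abca1 (0.51) and Chpt1 (0.23) first. The 9 became 6 without replicate 3 of the BLT1-/-, BLT1-/-KRasLA1 or BLT1+/+ CS lungs, and with each array centred on its median. Of the processing, secretion and clearance genes 7 of 24 rose and 3 fell. Pparg (0.68), Pla2g15, a lysosomal phospholipase (0.71), and Csf2ra (0.61) rose, and the 3 that fell were the flippases Atp8a1 (-0.16) and Atp11a (-0.15) and the ubiquitin ligase Nedd4l (-0.19). Of the regulators 7 of 24 rose, among them Cebpa (0.38) and Etv5, and 4 fell, among them Tead1 (-0.58) and Cebpd (-0.83). In the same comparison injury-associated markers fell in 10 of 17 and rose in 2, leukocyte markers rose in 15 of 15, alveolar macrophage markers rose in 8 of 13, and cell cycle genes fell in 18 of 19. The cell cycle genes had risen with silica in 19 of 19 in the same day 2 CS lungs, and 0 were called between the PBS pools. The part of these lists in the differences of the type 2 genes was not tested.

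The third comparison asked whether the genes depended on BLT1 in CS lungs. None was called at either day by limma, with 1 of the 10 at an unadjusted p under 0.05 at day 2 (8.7% of all genes) and 3 at day 60 (4.06% of all genes). The background of called genes was 0.0201% of all genes at day 2 and 0.0401% at day 60.

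At day 2, Sftpb was at 14.06, 14.04 and 13.97 in BLT1-/- CS lungs, against 13.90, 13.95 and 13.87 in BLT1+/+ CS lungs. The genotypes did not overlap, and the difference was 0.12 ± 0.05 (adjusted p = 0.466). Sftpa1 was at 14.15, 14.16 and 14.09 in BLT1-/- CS lungs, against 14.18, 14.26 and 14.20 in BLT1+/+ CS lungs. It was lower without overlap (-0.08 ± 0.04, adjusted p = 0.628). Abca3 was higher in BLT1-/- lungs without overlap (0.07 ± 0.06, adjusted p = 0.849). Absence of overlap between 3 and 3 lungs was seen in 12.4% of all genes at day 2, and in 3 of these 10.

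At day 60 all 10 differences were negative, with a median of -0.09 beside 0.01 over all genes, of which 46.4% were negative. Napsa had the largest difference, at 12.18, 12.19 and 12.14 in BLT1-/-KRasLA1 CS lungs, against 12.32, 12.51 and 12.44 in BLT1+/+KRasLA1 CS lungs. The genotypes did not overlap, and the difference was -0.25 ± 0.07 (interval -0.40 to -0.10, unadjusted p = 0.00308, adjusted p = 0.967). Lpcat1 (-0.15), Abca3 (-0.13), Nkx2-1 (-0.13) and Lamp3 (-0.10) followed, all with an adjusted p of 0.967. Sftpa1, Sftpb, Napsa, Lpcat1 and Nkx2-1 did not overlap between the genotypes, against 10.5% of all genes. All 10 stayed negative in every alternative run, including that without the lung with high Eif2s3y. Without that lung the median was -0.05, Napsa was at -0.21 and Nkx2-1 at -0.05, against -0.13 with it. The 10 genes are measured in the same 6 lungs and move together, so their common sign is not 10 separate observations.

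The saline pools of day 60 were not ordered in this way. Lamp3 was at 13.39 in the BLT1-/-KRasLA1 pool, against 13.25 in the BLT1+/+KRasLA1 pool. Sftpb was at 14.12 in the BLT1-/-KRasLA1 pool, against 14.04 in the BLT1+/+KRasLA1 pool. Sftpa1, Sftpd, Napsa and Slc34a2 were also higher in the BLT1-/-KRasLA1 pool, and Sftpc, Abca3 and Nkx2-1 were lower. The interaction of BLT1 and silica at day 60 was negative for all 10 genes, with a median of -0.14, and largest for Napsa (-0.33 ± 0.14) and Lamp3 (-0.24 ± 0.10). None was called at day 60 (adjusted p = 0.9999 each, 2 of the 10 and 1.99% of all genes with an unadjusted p under 0.05) or at day 2 (0 of the 10 and 4.49% of all genes), and 0% of all genes were called in either interaction. These interactions use the same CS lungs as the BLT1 differences and rest on 1 pool per group. The common sign at day 60 did not hold in every alternative run. The highest values there were 0.06 for Sftpc, 0.02 for Nkx2-1 and 0.01 for Abca3, while the other genes stayed negative.

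Sftpa1, Sftpc and Sftpd lie on chromosome 14, as does Ltb4r1, at gaps of 14.63, 14.75 and 14.58 Mb. The BLT1 differences of Sftpa1 were -0.08 at day 2 and -0.06 at day 60, without overlap at either day. Those of Sftpd were -0.05 and -0.08, and those of Sftpc 0.00 and -0.04, with overlap. Among the 5 genes without overlap at day 60, Sftpa1 alone had also been lower without overlap at day 2, and Sftpb had been higher. The share of all genes lower without overlap at both days was not counted. In the saline pools Sftpa1 was not lower without BLT1. It was at 14.22 (BLT1-/-) and 14.21 (BLT1+/+) at day 2. At day 60 it was at 14.29 (BLT1-/-KRasLA1) and 14.22 (BLT1+/+KRasLA1).

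**Figure D5:**
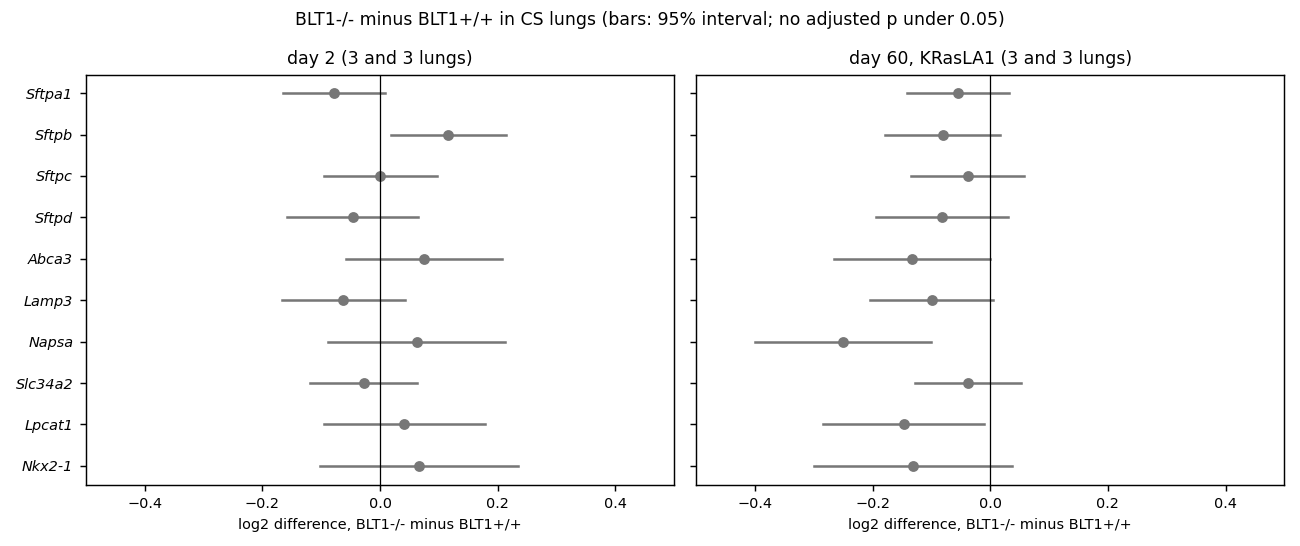
Log2 difference, BLT1-/- minus BLT1+/+ in CS lungs (3 and 3 lungs), at day 2 (left) and day 60 (right), with 95% intervals. No gene is called, the day 2 points lie between -0.08 and 0.12, and all day 60 points lie below 0, down to -0.25 for Napsa.

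The 10 genes shared part of their variation over the 16 arrays. Of the 45 pairs 40 had a positive Pearson r, and r ran from -0.26 (Sftpd with Abca3) to 0.88 (Lpcat1 with Nkx2-1). Lamp3 correlated with Napsa (0.87) and Sftpa1 (0.82). For Sftpd r was -0.16 with Sftpb and -0.02 with Slc34a2, but 0.65 with Napsa and 0.72 with Lamp3. These correlations are descriptions over arrays that share day, genotype and treatment.

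The genes outside the list with the most similar pattern also differed. For Sftpd they were Zranb3 (r = 0.96), a DNA translocase, and the lysosomal cathepsins Ctsz (0.96) and Ctsc (0.96). Zranb3 was higher after silica by 0.40 at day 2 and 0.96 at day 60, Ctsz by 0.42 and 0.77, and Ctsc by 0.22 and 0.33. They were picked for following Sftpd on these same arrays, so a rise with silica follows from the choice. For Nkx2-1 they were Wdr6 (0.92), Sptssa, a small subunit of serine palmitoyltransferase (0.91), and Prr15 (0.90). For Sftpc they were Mrpl24 (0.91), Ccnt2 (0.90) and Frmpd1 (0.90), for Sftpb Fam102b (0.88), the ETS factor Elf5 (0.83) and Gemin7 (0.81), and for Sftpa1 the inflammasome protein Nlrc4 (0.91), Syt5 (0.89) and Gatd1 (0.89).

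Ordered by group mean, Sftpd was highest in BLT1+/+KRasLA1 CS lungs (13.61 ± 0.09, SD, n = 3), then in BLT1-/-KRasLA1 CS (13.53 ± 0.05), BLT1+/+ CS of day 2 (13.39 ± 0.04) and BLT1-/- CS of day 2 (13.35 ± 0.04), with the 4 pools below. Neighbouring CS groups of the same day overlapped, and the days did not. Napsa and Nkx2-1 were likewise highest in BLT1+/+KRasLA1 CS lungs (12.42 ± 0.09 and 11.44 ± 0.14), but their lowest groups differed: for Napsa the BLT1-/- PBS pool of day 2 (11.84), for Nkx2-1 the BLT1+/+ CS lungs of day 2 (11.12 ± 0.12).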

How the data were processed

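Total lung RNA was extracted with an RNeasy kit, and 250 ng was labelled for Affymetrix whole-transcript arrays, per the labels' protocols. The authors deposited 1 log2 level for each probe set, which the submitters' processing notes credit to Partek 6.6 and RMA. Array design, build and order of steps: not given in the sources used here. Array medians were 8.25 to 8.34, and the closest arrays differed by an SD of 0.22.

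A single gene symbol was given for 21789 of 35556 probe sets, more than 1 for 1621 and none for 12146. For 999 genes with several probe sets, the one with the highest mean was kept, leaving 19938 genes. Gene identifiers of all 10 members were found in RefSeq (GRCm38.p6), the source of chromosomes, gaps and promoters.

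Group means over 16 arrays were fitted with limma 3.58.1 in R 4.3.3 (lmFit, eBayes with trend). The spread comes from the CS lungs (8 residual and 5.4 prior degrees of freedom), and a pool was assumed to vary like a lung. Tests were two-sided, with Benjamini-Hochberg adjustment over 19938 genes and a threshold of 0.05. Precision is limited by how many arrays there are, with a median SE over all genes of 0.10 for mean responses and 0.14 within a genotype. Over the 10 members it was 0.05 and 0.07. The fit was tested on simulated data.

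Members, lists and tests were chosen with earlier results of these data known. Named list genes are up to 4 with the smallest p unless said otherwise, and genes of similar pattern the 3 with the highest r. Alternatives were cyclic loess, median centring, a filter on low genes, probe set means, array weights, single days, a replicate block and leaving out each array. Replicate numbers of the day 2 lungs pair by the correlation of their deviations (given in the report), not by a label.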

Additional observations from a re-analysis of the deposited data

How the results depend on the processing

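The counts of called genes among the 10 kept within 1.5 times their value in most comparisons and alternatives. Most of these counts were 0, and a 0 that stayed 0 was taken as kept, so this says little about stability. With any 1 array left out, the count of 2 for silica at day 2 ran from 0 to 3, that of 1 at day 60 from 0 to 1, and that of 1 in BLT1+/+KRasLA1 mice from 0 to 1. The zeros at the mean responses came without a saline pool, where the saline side is 1 array. With the replicate block on all arrays, and likewise on the day 2 lungs alone (chosen after seeing the data), the count in BLT1-/- mice was 1 in place of 0, and that between the PBS pools was 1 in place of 0, both times Napsa (adjusted p = 0.0382 and 0.034 for BLT1-/- mice, 0.04 and 0.0328 for the pools). The block added Napsa to the day 2 response as well (adjusted p = 0.037 and 0.0333) and changed no other call at day 2. With array weights the count in BLT1-/-KRasLA1 mice was 1 in place of 0 (Sftpd 0.26, adjusted p = 0.0321). With the arrays of day 60 alone the count in BLT1+/+KRasLA1 mice was 0 in place of 1 (Sftpd 0.41, adjusted p = 0.0932). Cyclic loess called Slc34a2 between the CS lungs of the days (0.07, adjusted p = 0.0416). The cause of these changes was not tested. No result changed sign among those called. Each PBS group is 1 array, so no response was checked against the spread between saline mice.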
